A study of Mus musculus with 10 samples.

Results

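Regions of open chromatin found in mouse embryonic stem cells (ESC) and in epiblast stem cells (EpiSC), and in neither of the somatic cell types of the study, are described here. Overlapping autosomal sites of the 4 cell types were merged into regions wherever they shared 1 bp or more, which gave 1121520 regions. A region was taken when it held at least 1 ESC and 1 EpiSC site and no site of neural stem cells (NSC) or embryonic fibroblasts (MEF). This held for 61376 regions, 5.47% of all, and they are called pluripotent-shared regions below. The presence of sites thus chose the regions, and it is not a finding about them.

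The sites come from FAIRE-seq, which crosslinks and shears chromatin, removes nucleosome-bound DNA by organic extraction, and sequences the DNA that stays in the water phase. ESC were E14 cells kept in N2/B27 medium with 1 uM of a MEK inhibitor, 3 uM of a GSK3 inhibitor and LIF, the condition called the ground state. EpiSC of the E3 line were expanded in 5 ng/ml FGF2 in medium conditioned by fibroblasts, on inactivated fibroblast feeders from which they were separated before crosslinking. NSC were ES-derived neural progenitors in 10 ng/ml FGF2 and 10 ng/ml EGF, and MEF came from E16.5 embryos. The MEF samples carry a source label that names NSC chromatin, and were taken as MEF on their title and cell type. Of 2 samples per cell type, 1 list of sites was analysed for each, so no difference between cell types has a replicate check and no test between them is possible. The intervals given with shares are exact (Clopper-Pearson) 95% intervals that cover counting error only, and neighbouring regions are not independent.

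Ground-state and primed pluripotent cells stand before and after implantation of the embryo. Both rely on core transcription factors such as Pou5f1 and Sox2, while many other regulators are active in the naive or the primed state alone. Open chromatin marks promoters, which are open in many cell types, and distal enhancers, which tend to be open in few. Regions open in both pluripotent states and closed in differentiated cells are therefore where elements tied to pluripotency in general would be looked for. No annotation or genome of the build of these sites (mm9) was used here, so regions are named by position, and no gene is assigned to them.

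The pluripotent-shared regions spanned 45.3 Mb. They held 64751 ESC sites, 14.8% of the autosomal sites of that list, and 64078 EpiSC sites, 16.54% of that list. They made up 38.4% (95% interval 38.2 to 38.7) of the 159733 regions with sites of both pluripotent types. The remaining 98357 such regions also held an NSC or MEF site, and 45991 of these were open in all 4 lists.

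Most were simple pairs. In 56166 regions (91.5%) a single ESC site met a single EpiSC site, and 5210 regions (8.49%) held 3 sites or more, with at most 7. In regions open in all 4 lists, 41.8% held 3 or more ESC and EpiSC sites. Within the simple pairs the sites shared a median of 258 bp (quartiles 172 and 389), and 92.4% of pairs shared at least 50% of the shorter site. The EpiSC site lay wholly inside the ESC site in 15321 pairs (27.3%), the reverse held in 12040 (21.4%), and in the other pairs each site reached beyond the other on a side. The midpoints of the sites were a median of 90 bp apart, which is small beside the median site widths of 408.5 bp for ESC and 378 bp for EpiSC.

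The regions were wider than regions of either list alone. Their median width was 586 bp (quartiles 406 and 888), against 328 bp for regions of ESC alone and 275 bp for those of EpiSC alone, while regions of all 4 lists had a median of 1376 bp. A region merged from several lists spans all its sites, so these widths grow with the number of lists by construction. Compared site by site, ESC sites in pluripotent-shared regions had a median width of 419 bp against 328 bp in ESC alone, and EpiSC sites 389 bp against 275 bp. The rule bears on these widths too, since a wider site more easily meets a site of another list. ESC sites shared with NSC alone or MEF alone had 333 and 349 bp. Those in regions of ESC, EpiSC and NSC had 423 bp, with MEF in place of NSC 449 bp, and in all 4 lists 514 bp. For EpiSC sites the same classes had 298, 305, 413, 436 and 515 bp. A width of 2 kb or more was reached by 2040 regions (3.32%), compared with 29.2% of regions of all 4 lists and 2.19% of all regions. In these wide regions the ESC sites covered more bases than the EpiSC sites in 1553 cases (76.1%), against 54.7% over all pluripotent-shared regions.

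The 5 widest regions showed this imbalance in different degrees. At chr11:97388932-97396922 a single ESC site filled all 7991 bp (score 9.62), while 2 EpiSC sites covered 1930 bp with a best score of 1.59. The region at chr11:97529225-97536782 was an ESC site of 7558 bp with an EpiSC site of 1008 bp in it, and at chr8:28260606-28267988 an ESC site of 7383 bp held an EpiSC site of 966 bp. The fourth, chr8:108207901-108215160, had 7260 bp of ESC and 1285 bp of EpiSC sites. Only the fifth, chr5:33876018-33883229, was broadly open in both, with 6915 bp in 3 ESC sites and 5537 bp in 3 EpiSC sites.

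Each site carries the authors' own score, whose unit and scale the labels and files leave unstated, so scores are ranked within a list and never compared between lists. A percentile below is the share of autosomal sites of the same list that score no higher. The scores set the sites of pluripotent-shared regions in opposite places of the lists. Their ESC sites ranked above the middle of the ESC list, with a median score of 3.81 (quartiles 2.17 and 6.41, percentile 56.1). Their EpiSC sites ranked below the middle of the EpiSC list, with a median score of 2.33 (quartiles 1.66 and 3.78, percentile 39.2). In the top 10% of the list lay 10.6% of these ESC sites and 5.97% of these EpiSC sites.

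In the ESC list the sites of pluripotent-shared regions came between those of ESC alone and those shared with somatic cells as well. The median was 2.84 for ESC alone, 3.25 when shared with NSC but not EpiSC, 3.26 when shared with MEF but not EpiSC, 4.25 in regions of ESC, EpiSC and NSC, 4.35 in regions of ESC, EpiSC and MEF, and 5.62 in all 4 lists. In the EpiSC list no other combination had a lower median. EpiSC sites of no other list had a median of 2.61, those shared with NSC alone 2.95, those shared with MEF alone 2.99, and those in all 4 lists 3.85. The contrast with sites of a single list held on every autosome taken by itself, though autosomes are parts of the same lists and not replicates. ESC sites of pluripotent-shared regions had 1.31 to 1.41 times the median score of ESC-alone sites on 19 of 19 autosomes, and EpiSC sites had 0.789 to 0.980 times the median score of EpiSC-alone sites on 19 of 19.

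**Figure D1:**
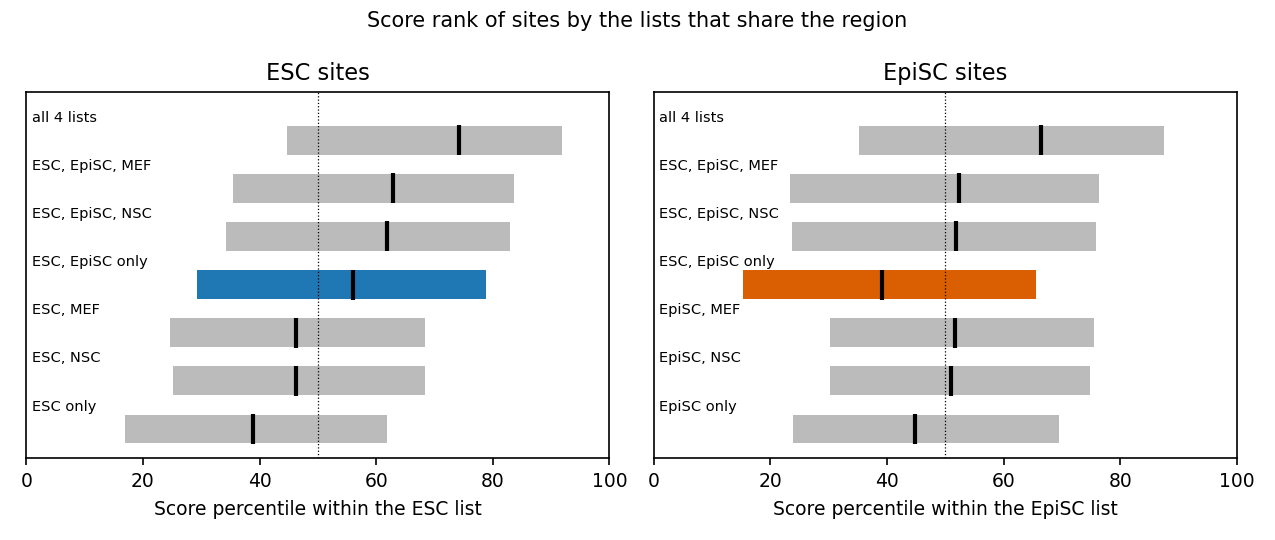
Score percentile of sites within the ESC list (left) and the EpiSC list (right), by the lists that share the merged region; bars span the quartiles, black ticks mark medians, and the coloured bar is the pluripotent-shared class. Its median percentile is 56.1 in the ESC list and 39.2 in the EpiSC list, the lowest of the classes drawn for EpiSC.

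The low rank in EpiSC depended on site width and on the score threshold. Among EpiSC sites under 200 bp the median was 2.59 in pluripotent-shared regions and 3.08 in EpiSC alone. Among those from 200 to under 300 bp it was 2.18 and 2.62, and among those from 300 to under 500 bp it was 2.03 and 2.19. Among sites from 500 to under 1000 bp the order was the other way, with 2.75 against 2.14, and also at 1000 bp or more, with 3.58 against 3.11, where EpiSC alone had 672 sites. When the upper 50% of each list by score was kept, the ratio of the medians over all widths was 1.05 instead of 0.892. Regions were then formed from fewer sites, so the classes compared differ from those of the full lists. The ratio of 1.05 therefore does not give the direction for strong sites of the full-list classes. In the full lists, over all widths, the upper quartile of EpiSC scores was also lower in pluripotent-shared regions, with 3.78 against 4.07 in EpiSC alone. For ESC the sites of pluripotent-shared regions scored higher than ESC-alone sites in every width class, from 2.97 against 2.70 under 200 bp to 7.10 against 5.37 at 1000 bp or more.

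How often a region was pluripotent-shared was followed along the scores. The regions with an ESC site were split into 10 equal groups by their best ESC score. The share of pluripotent-shared regions was 10.7% (95% interval 10.4 to 10.98) in the lowest group, 14.2% in the fifth, 20.1% (19.7 to 20.5) in the ninth and 15.9% (15.6 to 16.3) in the highest. Along the EpiSC scores the order was nearly the reverse, with 30.7% (30.3 to 31.2) in the lowest group, 14.5% in the fifth, 18.6% in the sixth and 9.98% (9.68 to 10.3) in the highest. Among regions with sites of both pluripotent types, the strong ones were mostly open in somatic cells too. There the share without a somatic site was 60.1% in the lowest group by ESC score and 20.4% in the highest, and 59.2% in the lowest group by EpiSC score and 17.2% in the highest. In ESC, score also went with site width, with medians in pluripotent-shared regions of 2.97 under 200 bp and 7.10 at 1000 bp or more. A wider region more easily meets a somatic site. The number of sites called in each list moves with its depth and threshold, which are unknown. The part of width, depth and threshold in these shares was not tested.

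**Figure D2:**
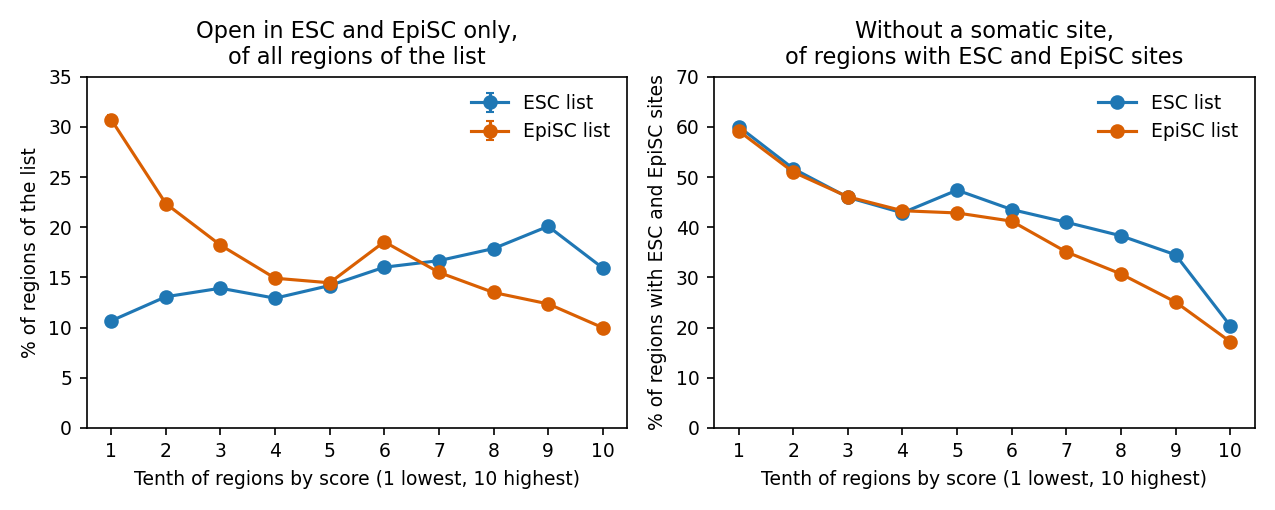
Share of pluripotent-shared regions in 10 equal groups by best ESC score (blue) or EpiSC score (orange), among all regions of the list with exact 95% intervals (left) and among regions with sites of both pluripotent types (right). The left lines run in opposite directions over most of their course (10.7% to 20.1% up to the ninth ESC group, 30.7% to 9.98% over the EpiSC groups), and both right lines end at their lowest values, 20.4% and 17.2%.

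The scores of ESC and EpiSC at the same region were only loosely related. Across the 61376 regions the Spearman correlation of the best ESC and best EpiSC score was 0.25. It was similar in regions of ESC, EpiSC and NSC (0.27) and of ESC, EpiSC and MEF (0.29). Across the regions of all 4 lists it was 0.46. These are descriptions over regions of the same pair of lists, and the ESC score also went with the bases covered by ESC sites (Spearman correlation 0.38), while for EpiSC the same correlation was 0.055. In simple pairs whose sites were both 250 to 350 bp wide (2952 pairs) the correlation was 0.31. Within single autosomes it ranged from 0.16 on chromosome 12 to 0.30 on chromosome 17.

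By median splits, 17488 regions (28.5%) lay above the median of both lists and 17681 (28.8%) at or below both. Another 17898 (29.2%) were above the median in ESC alone and 8309 (13.5%) above it in EpiSC alone. In the top 10% of both lists were 1177 regions (1.92%, 95% interval 1.81 to 2.03), against 17.0% of the regions of all 4 lists. A region is ranked here by its best site. Regions of all 4 lists more often held 3 or more ESC and EpiSC sites (41.8% against 8.49%), and the part of this in the contrast was not tested. The 1177 doubly strong regions had a median width of 831 bp, with a median best score of 10.9 in ESC and 8.22 in EpiSC. The opposite case, an ESC score in the top 10% with an EpiSC score at or below the median, held for 2343 regions, and the reverse for 722. The former had 723 bp of ESC and 392 bp of EpiSC sites at the median, the latter 308 bp and 454 bp.

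The plane of the paired ranks was filled unevenly. In cells of 5 by 5 percentiles the median was 150 regions, and the corner where both scores were lowest held 501, the most of any cell. The opposite corner, with both in the top 5 percentiles, held 399. Along the lowest 5 percentiles of EpiSC, the cells at ESC percentiles 40 to 45 and 80 to 85 held 437 and 460 regions, with 68 at 30 to 35 and 220 at 60 to 65. The scores themselves were distributed in more than 1 hump in both whole lists and in these regions. Of ESC sites in pluripotent-shared regions, 6034 scored 1.5 to 1.75, 1757 scored 2.5 to 2.75 and 2998 scored 3.25 to 3.5, and of the EpiSC sites 10921 scored 1.5 to 1.75, 2272 scored 2.5 to 2.75 and 3272 scored 3 to 3.25.

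**Figure D3:**
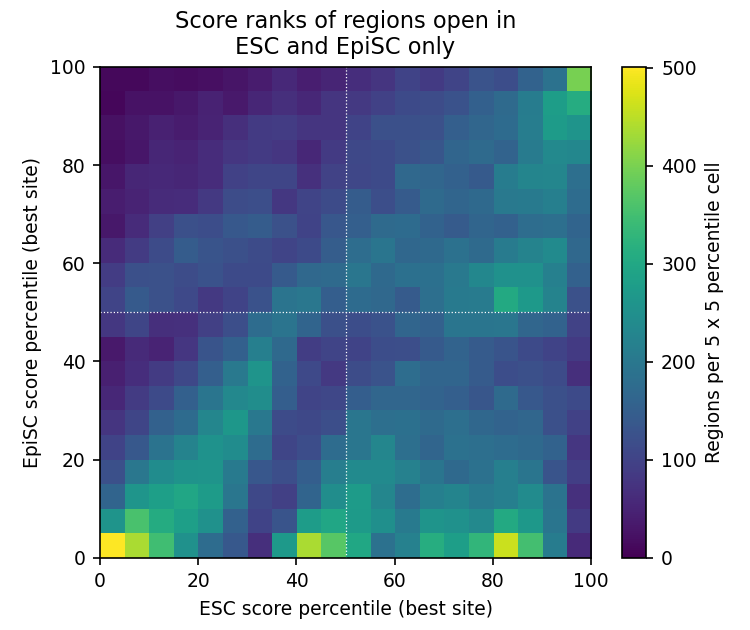
Number of pluripotent-shared regions by the percentile of the best ESC score (x axis) and of the best EpiSC score (y axis), in cells of 5 by 5 percentiles; dotted lines mark the list medians. The fullest cell is the corner where both are lowest (501 regions), and 399 regions lie in the corner where both are highest.

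The highest-ranking regions were picked by the lower of their percentiles in ESC and EpiSC. The first was chr17:43213998-43214365, a simple pair of 368 bp with an ESC score of 30.3, the highest ESC score of any pluripotent-shared region, and an EpiSC score of 20.4. Next came chr8:80947663-80948094 (ESC 18.7, EpiSC 22.4), chr15:12379904-12380942 (20.5 and 17.96) and chr4:103228296-103228832 (17.7 and 19.8). A region at chr11:96558136-96558549 scored 17.7 in ESC and 17.0 in EpiSC. All of these stood at or above percentile 99.8 of both lists.

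The other 5 followed closely. They were chr4:41720994-41721201 (20.9 and 16.03), chr6:47690278-47690422 (19.97 and 15.6), chr4:59976069-59977760 (18.2 and 15.3), chr15:93320891-93321136 (16.9 and 24.8) and chr4:61967787-61968446 (18.1 and 15.3). Chromosome 4 thus held 4 of the 10, a small number to read, and 4944 of all 61376 pluripotent-shared regions. In 7 of the 10 an NSC or MEF site lay within 1 kb, against 49.5% of all pluripotent-shared regions. The closest was at 84 bp, while the region on chromosome 6 had none within 35346 bp. Several are under 300 bp wide, and a narrow site of high score has no replicate check here.

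The highest EpiSC score among these regions was 58.4, at chr17:35647699-35648029, where the ESC score was 3.64, near the middle of its list (percentile 53.3). This region of 331 bp lay among other strong EpiSC sites. In the same stretch the pluripotent-shared regions chr17:35634698-35637088 and chr17:35640311-35645506 scored 21.7 and 29.4 in EpiSC and 6.93 and 12.4 in ESC. Other regions between and beside them were not pluripotent-shared, because an NSC site entered at chr17:35637179-35640188, a MEF site at chr17:35645658-35647364 and sites of both at chr17:35649152-35655959, and because chr17:35648206-35648896, next to the region of the highest score, had an EpiSC site (score 34.7) and no ESC site. A dense pluripotent domain can therefore be broken up by the rule, and a region that is excluded may score as high in ESC and EpiSC as its neighbours: the 3 with somatic sites scored 25.9 to 37.8 in EpiSC.

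The edge of the rule was examined on both sides. A median of 1017 bp (quartiles 396 and 2286) separated a pluripotent-shared region from the nearest NSC or MEF site. A somatic site lay within 1 kb of 49.5% of the regions (95% interval 49.1 to 49.9), within 10 kb of 97.9%, and within 100 bp of 3555 regions (5.79%). The nearest NSC site was a median of 1711.5 bp away and the nearest MEF site 2089 bp. Regions of ESC alone and EpiSC alone were similarly near to somatic sites, with 49.3% and 51.5% within 1 kb. Scores hardly moved with that distance, the median best ESC score being 3.96 within 100 bp, 3.88 from there to 1 kb, 3.89 from 1 kb to 10 kb and 3.97 beyond, and the median best EpiSC score 2.50, 2.38, 2.36 and 2.64.

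Among the regions just inside the rule, 31 touched a somatic site without a shared base. The highest-ranking of these were chr19:56465848-56466569 (ESC 10.95, EpiSC 10.4), chr17:29078775-29079355 (9.65 and 6.45) and chr4:56728966-56729468 (9.62 and 5.67). Just outside it, 184 regions with ESC and EpiSC sites shared 1 to 10 bp with somatic sites. Those that shared 1 bp and ranked highest were chr6:77929173-77930739 (ESC 9.25, EpiSC 3.55, NSC 6.22), chr8:113761176-113761958 (4.19, 3.61 and MEF 4.38) and chr1:159464750-159466010 (5.19, 2.97 and MEF 1.76). On the pluripotent side, 238 of the simple pairs were joined by 1 to 10 bp, and in 229 places a region of ESC alone and one of EpiSC alone lay 0 to 10 bp apart without being joined. At 10 bp both edges thus concern few regions, and at 100 bp they concern more. A somatic overlap of 1 to 100 bp excluded 2834 regions, and in 2423 places a region of ESC alone and one of EpiSC alone lay 0 to 100 bp apart. At the other extreme, the region farthest from any somatic site was chr7:11773469-11773764, with 352678 bp to the nearest, an ESC score of 2.32 and an EpiSC score of 1.75.

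The regions were spread unevenly over the autosomes. Their density was lowest on chromosome 18, with 13.8 per Mb, and highest on chromosome 11, with 39.2 per Mb, a range of 0.586 to 1.66 times the median autosome. As a share of all merged regions on the chromosome, they ranged from 3.08% (95% interval 2.92 to 3.25) on chromosome 18 and 3.64% (3.48 to 3.81) on chromosome 12 to 7.41% (7.16 to 7.66) on chromosome 17. Chromosomes 8 (7.25%), 11 (7.18%), 5 (7.09%) and 4 (7.08%) followed close to the highest. This share takes account of where sites of all lists together are dense, and not of where 1 pluripotent list is dense. On chromosome 8, 14.6% of regions with an ESC site and 23.4% of those with an EpiSC site were pluripotent-shared, against 15.1% and 17.1% over all autosomes. The share of regions with sites of both pluripotent types that had no somatic site varied less, from 33.7% on chromosome 7 to 43.0% on chromosome 5. Chromosome 11 had many pluripotent-shared regions but a low value by this last measure, 34.1%.

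Scores followed the chromosomes in EpiSC and hardly in ESC. The median percentile of the best ESC score lay between 55.6 and 60.9 on all 19 autosomes. That of the best EpiSC score went from 27.2 on chromosome 12, 33.2 on chromosome 18, 34.2 on chromosome 6 and 35.4 on chromosome 7 to 49.2 on chromosome 11. A wider range in EpiSC was also seen outside these regions: the median score of EpiSC-alone sites ranged from 2.21 on chromosome 12 to 2.86 on chromosome 17, and that of ESC-alone sites from 2.77 to 2.95. The order of the chromosomes was shared only in part. EpiSC-alone sites had a median of 2.65 on chromosome 18, 2.47 on chromosome 6 and 2.56 on chromosome 7, against 2.61 over all autosomes.

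**Figure D4:**
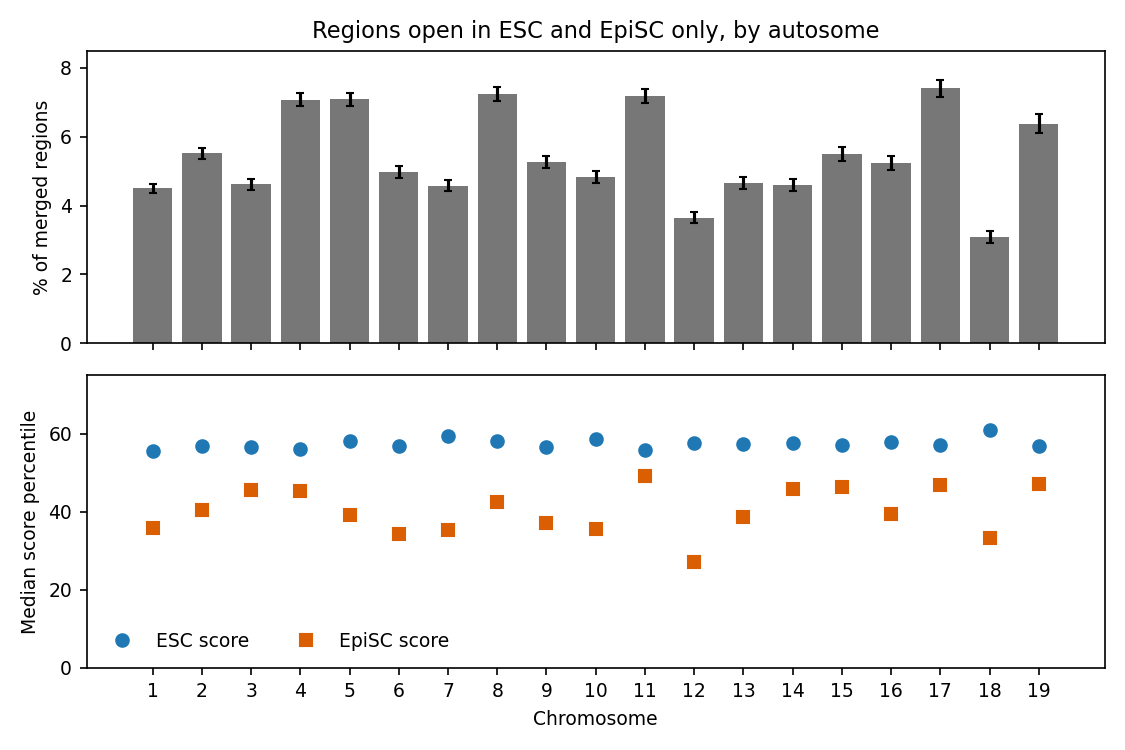
Pluripotent-shared regions as a percentage of all merged regions of each autosome, with exact 95% intervals (top), and the median percentile of their best ESC and EpiSC scores in the respective lists (bottom). Chromosomes 18 and 12 have the lowest shares (3.08% and 3.64%), and EpiSC ranks range from 27.2 to 49.2 while ESC ranks stay between 55.6 and 60.9.

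On a finer scale the regions gathered in domains. The 23717 autosomal windows of 100 kb with a region of any class held 0 to 34 pluripotent-shared regions each, with a median of 1. A total of 14473 windows (61.0%) had at least 1, and the 5306 windows with 5 or more (22.4%) contained 68.6% of the regions. The densest 10% of windows held 40.6% of them, against 16.48% of regions of all classes. For other classes counted in the same way this share was 32.8% for ESC alone, 26.6% for EpiSC alone, 37.3% for NSC with MEF only and 41.7% for all 4 lists; the classes differ in size, which bears on such shares. Numbers per window went with those of ESC-alone regions (Spearman correlation 0.77), less with all-4 regions (0.58) and EpiSC-alone regions (0.51), and inversely with regions of somatic lists only (-0.35). With the numbers of all NSC and MEF sites in a window the correlations were weakly positive (0.12 and 0.15). Windows are not replicates, and these correlations describe the lists.

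The direct neighbours tell the same at the smallest scale. Of the merged regions next to a pluripotent-shared region, 12.9% (95% interval 12.7 to 13.1) were pluripotent-shared themselves, against 5.47% among neighbours of all regions. Other classes also neighboured their own kind more often: the share was 10.4% for regions of all 4 lists, against 4.10% among neighbours of all regions, and 29.5% for regions of ESC alone, against 15.6%. Beside pluripotent-shared regions, a further 26.9% of neighbours were of ESC alone and 13.3% of EpiSC alone, so that 53.1% of neighbours were free of somatic sites, compared with 31.6% for all regions, 49.8% for regions of ESC alone and 39.3% for regions of EpiSC alone. Neighbours with somatic sites only made up 21.3%, against 46.0% for all regions. Even so, stretches without any interruption were short. A total of 46943 regions (76.5%) had neighbours of other classes on both sides, 6504 runs of 2 or more neighbouring pluripotent-shared regions contained 23.5%, and 49 runs had 5 or more.

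The longest run was on chromosome 15, where 8 regions in a row filled 66.5% of chr15:37159720-37172493. ESC scores there ran from 3.16 to 9.09 and EpiSC scores from 2.19 to 9.29, and the EpiSC ranks were the higher, with a median percentile of 85.8 against 61.6 in ESC. On chromosome 5 a run of 7, chr5:120282477-120290693, paired an ESC score of 1.59 with an EpiSC score of 10.6 in its first region, and an ESC score of 18.7 with an EpiSC score of 5.44 in its sixth. The highest scores of the 2 cell types in this run were therefore in separate regions. A run of 7 on chromosome 7, chr7:3206156-3216683, had high ESC scores (median 8.70, percentile 90.2) and middling EpiSC scores (2.89, percentile 49.8).

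The other named runs, of 6 regions each, also ranked higher in ESC. The run chr7:152038628-152051505 was covered to 91.4% with a median ESC percentile of 88.6 and a median EpiSC percentile of 30.9, and chr6:30105618-30119544 was covered to 85.7% with percentiles of 87.1 and 55.2. They are named for their coverage among 9 runs of this length, so the balance of the others is not shown.

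The window with the most pluripotent-shared regions was chr14:122600001-122700000, with 34 of its 71 regions (47.9%), beside 1 NSC and 11 MEF sites. It also had the highest share among windows with 20 or more regions, whose median share was 3.39%. The window next to it, chr14:122700001-122800000, held 29 of 76. The others named by number were chr2:168600001-168700000 (30 of 69), chr5:129700001-129800000 (28 of 73) and chr19:44700001-44800000 (27 of 67). NSC had 6 sites or fewer in each of these 5 windows and MEF 3 to 11, while ESC had 58 to 70 and EpiSC 39 to 58. Windows without any somatic site were few, 128. They held 19 pluripotent-shared regions in all, with 3 in chr6:113900001-114000000 and 2 in chr14:54100001-54200000, and 1 in each of the remaining 14 that had any.

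Grouping pluripotent-shared regions with gaps under 5 kb, a description chosen after the values were seen, gave 795 clusters of 5 or more, which held 8.03% of the regions. Clusters of other classes were not counted. Of the gaps between pluripotent-shared regions, 31.3% were under 5 kb. The share was 54.1% for ESC alone, 31.7% for EpiSC alone, 29.6% for NSC with MEF only and 28.3% for all 4 lists. The largest cluster lay in the richest window and its neighbour, chr14:122659609-122714316, with 26 pluripotent-shared regions in 54708 bp. They were strong in both cell types, with ESC scores from 1.42 to 17.9 (median 6.03, percentile 76.7) and EpiSC scores from 1.35 to 11.3 (median 5.29, percentile 81.7). The highest ESC score and the highest EpiSC score of the cluster were both at chr14:122689694-122690118, with 17.9 in ESC and 11.3 in EpiSC. Between its pluripotent-shared regions the cluster held 9 regions of ESC alone, 6 of EpiSC alone and 5 with a somatic site.

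**Figure D5:**
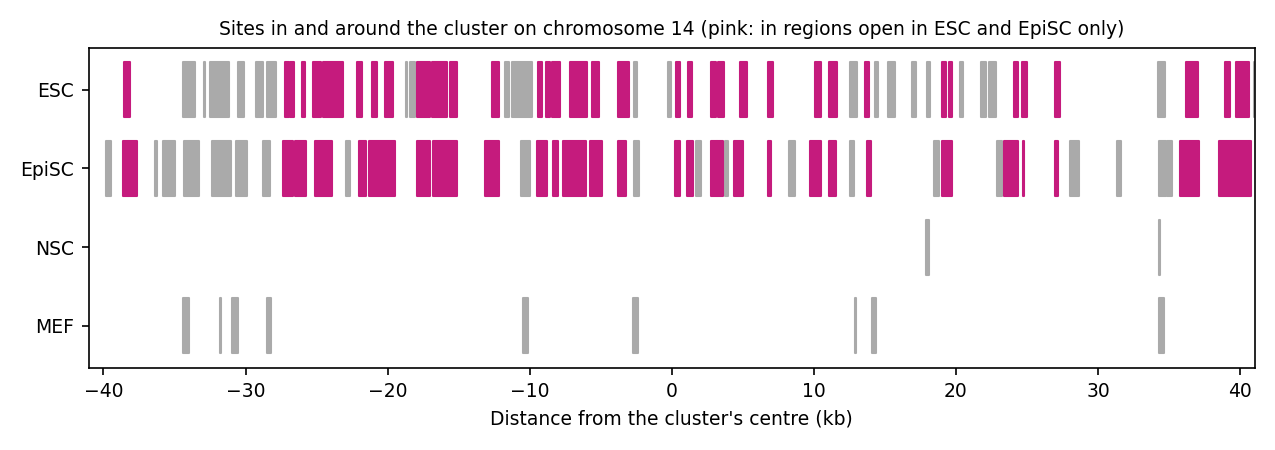
Sites of the 4 lists in and around the largest cluster of pluripotent-shared regions, on chromosome 14, by distance from its centre in kb; sites in pluripotent-shared regions are pink and other sites grey. The cluster, 54708 bp long, holds 26 such regions, 1 NSC site and 4 MEF sites.

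The next clusters differed in balance. On chromosome 7, chr7:3193098-3225980 held 18 pluripotent-shared regions and 4 others, with 1 NSC and 2 MEF sites, and includes the run of 7 described above. Its ESC scores were high (2.73 to 15.5, median 9.54, percentile 92.8) and its EpiSC scores nearer the middle of their list (at most 7.21, median 3.39, percentile 59.1). The regions chr7:3211541-3212775 and chr7:3217436-3218566 both scored 15.5 in ESC, with 3.48 and 7.21 in EpiSC. On chromosome 2, chr2:168635222-168677578 held 16 pluripotent-shared regions with scores high in both lists, at median percentiles of 84.1 in ESC and 83.4 in EpiSC. There chr2:168656895-168658130 had the highest ESC score, 12.8, and chr2:168662381-168663911 the highest EpiSC score, 9.44, beside 10.3 in ESC.

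Long stretches also lacked such regions. The longest gap between neighbours was 8665457 bp, chr14:106431629-115097085, which contained 5507 NSC and 965 MEF sites but 146 ESC and 236 EpiSC sites. Other classes had gaps nearly as long. Their longest was 7191914 bp for ESC alone, 7543422 bp for EpiSC alone, 7346987 bp for NSC with MEF only and 7651468 bp for all 4 lists. Of the 20602 windows with 20 or more regions, 6648 had no pluripotent-shared region, and in 207 windows they made up 25% or more.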

How the data were processed

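FAIRE-seq sites of 4 mouse cell types were analysed, 1 list per type; 6 of the 10 samples, genomic control included, were not analysed here as files. The build is mm9 and CASAVA 1.8 is listed, per the submitters' processing notes. Per the labels' protocols, fragments of 150 to 400 bp were taken after 15 PCR cycles. The deposited score of each site was computed by the authors. Its unit, the aligner, caller settings, use of the control and pooling were not given in the sources used here, and depth is unknown. The deposited display value was not used.

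Autosomal sites sharing 1 bp or more were merged; coordinates are printed 1-based. Merging and distances were checked on simulated lists and against bedtools 2.31.1. Scripts ran in Python 3.11.15 (scipy 1.17.1, numpy 2.4.6, pandas 2.3.3), with figures by matplotlib 3.10.9. Named regions followed a fixed rule: highest joint rank, widest, richest windows, longest runs, and those nearest the rule's edges; regions and stretches named beyond it (the highest EpiSC score with its surroundings, the clusters, the most isolated region and the longest gap) were chosen after their values were seen. The regions and the rules were chosen with earlier results of these data known. Planned gene lists and sequences were not used, because the tables at hand are on GRCm38. With 1 list per cell type no test was run.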

Additional observations from a re-analysis of the deposited data

How the results depend on the processing

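Unknown depth limits any comparison of numbers of sites. No paired analysis was possible because there was 1 list per cell type, and for that reason leaving out replicates did not apply. Leaving out chromosomes 7, 12 and 18, and the ratios to sites of a single list, were added after the data were seen. The intervals used are narrow, so small shifts count as moved; except where fewer sites or other joining change values by construction, the cause was not tested.

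The main values were 61376 regions, median width 586 bp, median ESC score 3.81 and EpiSC score 2.33, 49.5% within 1 kb of a somatic site, score correlation 0.25, 5306 windows with 5 or more regions, ratios to ESC-alone and EpiSC-alone sites of 1.34 and 0.892, and densities of 1.47 and 1.66 times the median autosome on chromosomes 8 and 11. Values not listed moved less than their interval or, for numbers, by less than 1.5 times, a wide margin. The number of regions was 51136 when sites up to 200 bp apart were merged and 73411 with lists of equal length. The windows with 5 or more regions were 4229 and 6461 under the same settings. Requiring 50% of the shorter site gave 579 bp, scores of 3.92 and 2.37, 53.8%, and ratios of 1.36 and 0.905. Merging sites up to 200 bp apart gave 669 bp, an ESC score of 3.61, 41.3%, a correlation of 0.232, an ESC ratio of 1.30 and 1.58 on chromosome 11. Lists of equal length (387312 sites each) gave 605 bp, scores of 4.19 and 2.44, 41.1%, a correlation of 0.215 and ratios of 1.28 and 0.971. The upper 50% of each list gave 32958 regions, 761 bp, scores of 6.69 and 4.44, 28.5%, 0.178, 2149 windows, an ESC ratio of 1.31, 1.92 on chromosome 11, and an EpiSC ratio of 1.05, which turns the direction. The upper 50% of the pluripotent lists against full somatic lists gave 17575 regions, 680 bp, 6.43 and 4.365, 0.155, 603 windows, an ESC ratio of 1.27, 1.51 and 1.90 on chromosomes 8 and 11, and an EpiSC ratio of 1.02, again turned. Leaving out sites under 100 bp gave 591 bp and 49.0%. Without regions that have a somatic site within 1 kb there were 31013 regions of 603 bp at the median, 2009 windows, and 1.55 and 1.57 on the 2 chromosomes. Without chromosomes 8 and 11 the width was 581 bp and the EpiSC score 2.295. Without chromosomes 7, 12 and 18 the EpiSC score was 2.37, the correlation 0.255 and the densities 1.32 and 1.497.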
